A study of Homo sapiens with 23 samples.

Results

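The genes described here are 5 medium-chain acyl-CoA synthetases, ACSM1, ACSM2A, ACSM2B, ACSM3 and ACSM5, and PAQR8, a membrane receptor gene that lies on another chromosome. They were taken by gene symbol from the expression tables and are 6 of the 60564 genes listed there. The members were chosen by the measured TPM of ACSM3 and PAQR8 in co-cultured HepG2 cells, with the ACSM relatives added, so every HepG2 comparison that holds co-cultured libraries is given as a description and without a test. The mRNA-seq covered 23 libraries, 12 from HepG2, a human hepatocellular carcinoma line, and 11 from Caco-2, a human colorectal adenocarcinoma line used as a model of the gut. The cells were kept in the iGLC platform, a microfluidic chip whose gut and liver chambers can be run alone (mono-culture) or joined by circulating medium (co-culture). FFAs, a mixture of palmitic and oleic acid at a 1:2 ratio and 1 mM in total, were given for 1 day, and controls had none. The labels give 0.5% FBS during treatment for every library, while the methods describe serum-free medium. Each group had 3 libraries, except co-cultured Caco-2 controls, which had 2. Both are established cancer lines and not primary cells. The study describes its replicates as biological and the sequencing as done in independent experiments, but nothing used here ties a library to an experiment. The p-values measure the spread between these libraries, and libraries of a group may share an experiment.

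Medium-chain acyl-CoA synthetases are mitochondrial enzymes that join fatty acids of medium length, and aromatic acids such as benzoate, to coenzyme A. The product can enter β-oxidation or be passed to glycine, a step by which liver and kidney clear aromatic acids. ACSM1 is known for activity on butyrate and other short or medium acids, ACSM2A and ACSM2B for aromatic and medium-chain acids, ACSM3 for short and medium acids, and ACSM5 is a less studied relative. PAQR8 encodes membrane progestin receptor beta, a protein of the progestin and adipoQ receptor family that spans the membrane and is distinct from the nuclear progesterone receptor.

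The 5 ACSM genes lie in a cluster on chromosome 16 of GRCh38. In GENCODE release 44 their order is ACSM5 (ENSG00000183549, chr16:20409534-20441336, forward strand), ACSM2A (ENSG00000183747, chr16:20451461-20487669, forward), ACSM2B (ENSG00000066813, chr16:20536226-20576427, reverse), ACSM3 (ENSG00000005187, chr16:20610243-20797581, forward) and ACSM1 (ENSG00000166743, chr16:20623235-20698890, reverse). ACSM1 lies within the span of ACSM3 on the opposite strand, and they share 0 exon bases. PAQR8 (ENSG00000170915) lies on chromosome 6 at chr6:52361421-52407777, forward strand. Its main transcript has 2 exons, and that of each of these ACSM genes has 14. ACSM4 and ACSM6, the remaining members of the family, lie on chromosomes 12 and 10.

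The likeness of these genes bears on how their reads can be told apart. The coding sequences of ACSM2A and ACSM2B were identical at 1710 of 1731 positions, or 98.8%. The other pairs of ACSM genes were identical at 60.1% to 67.1% of aligned positions. Below, 60 bases of exon 6, all coding, are shown 5′ to 3′ on the coding strand, with capitals where a base differs from ACSM2A. They are shown because they let the closeness of the ACSM2 genes be seen beside the distance of ACSM1 and ACSM3.
ACSM2A (chr16:20471568-20471627, forward strand): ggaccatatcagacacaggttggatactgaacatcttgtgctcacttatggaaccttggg
ACSM2B (chr16:20552206-20552265, reverse strand): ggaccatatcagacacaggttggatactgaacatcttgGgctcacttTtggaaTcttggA
ACSM1 (chr16:20669889-20669948, reverse strand): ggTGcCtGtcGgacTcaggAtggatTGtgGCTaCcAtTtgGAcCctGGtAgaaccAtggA
ACSM3 (chr16:20781009-20781068, forward strand): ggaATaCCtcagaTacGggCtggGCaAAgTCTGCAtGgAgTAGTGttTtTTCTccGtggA
ACSM2B differed from ACSM2A at 4 of these bases, ACSM1 at 23 and ACSM3 at 31. The stretch is richer in ACSM2 differences than the coding sequence as a whole, which holds 21. Of all stretches of 100 bases in the ACSM2A transcript, 20.0% occurred unchanged in the ACSM2B transcript, and 0% in those of ACSM3 and ACSM5. The split of reads between ACSM2A and ACSM2B is therefore uncertain, and the genes are best read together.

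Values are TPM, a relative transcript abundance that is scaled to transcript length and adds up to the same total in each library, so levels of different genes can be compared. They keep no record of read numbers, so depth is unknown and counting error cannot be stated. The number of genes with a TPM above 0 ranged over libraries from 19259 to 23689. The 4 HepG2 libraries numbered 3 stood apart from the other 8, with 21588 to 22416 genes above 0 TPM against 19259 to 20873, and the members' HepG2 differences are given with and without them. Of 15 hepatic markers, 13 passed the test as higher in HepG2 than in Caco-2 controls (limma adjusted p under 0.05), while GC, the vitamin D binding protein, was listed at 0 TPM in all 3 mono-cultured HepG2 controls. Of all genes tested, 23.4% passed as higher and 39% as lower in HepG2 controls. Of 11 intestinal markers, 10 were lower in HepG2, and FABP2 was higher there. A gene entered the fit if any group's mean reached 1 TPM, which 10 intestinal markers did among Caco-2 groups but only 4 among HepG2 groups. For a marker that entered through a single line, that limit set the direction. The intestinal counts are therefore a description.

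Expression of the ACSM genes was concentrated in HepG2 cells. In mono-cultured HepG2 controls, ACSM3 had 179, 172 and 133 TPM (161 ± 24.9, SD, n = 3), ACSM2B had 16.7, 22.96 and 9.44 TPM, ACSM5 had 15.96, 22.5 and 7.48 TPM, and ACSM2A had 6.16, 6.42 and 4.65 TPM. In mono-cultured Caco-2 controls, ACSM3 had 12.6, 14.8 and 11.5 TPM (13.0 ± 1.65, SD, n = 3), and no other ACSM gene reached 1 TPM. The groups of the 2 lines did not overlap for any of these 4 genes. Of all genes compared, 25.5% separated in this way with HepG2 cells higher and 41.9% with HepG2 cells lower. Differences between lines were tested with limma on log2(TPM + 1) over 16495 genes. In controls, 62.4% of all genes tested passed, 23.4% as higher and 39% as lower in HepG2 cells, and with FFAs 61.1%, with 21.8% higher and 39.3% lower. Of the 2 members that reached 1 TPM in both lines, ACSM3 and PAQR8, 1 passed. ACSM3 was higher in HepG2 cells by a log2 difference of 3.53 in controls (SE 0.18, adjusted p = 2.23e-12) and 3.71 with FFAs (SE 0.18, adjusted p = 1.01e-12). ACSM2A, ACSM2B and ACSM5 entered the fit only through the HepG2 libraries, where they are high, so their direction was set by the limit of 1 TPM and their differences are a description. In controls they were 2.66 for ACSM2A, 3.75 for ACSM2B and 3.87 for ACSM5, and with FFAs 2.93, 3.89 and 4.10. The size for these 3 genes depends on the pseudocount because their Caco-2 levels are near 0: with 0.1 in place of 1, the differences in controls were 5.21 for ACSM2A, 5.74 for ACSM2B and 6.84 for ACSM5.

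PAQR8 was expressed in both lines and did not pass the test between them. It had 11.1, 9.53 and 13.4 TPM in mono-cultured HepG2 controls and between 11.3 and 17.5 TPM in mono-cultured Caco-2 controls, and these ranges overlap. The log2 difference of PAQR8, HepG2 minus Caco-2, was -0.29 in controls (95% interval -0.70 to 0.12, limma adjusted p = 0.20) and -0.13 with FFAs (95% interval -0.54 to 0.28, limma adjusted p = 0.58), where it was 0.16 after quantile normalization and 0.08 after median-of-ratios scaling. The median of all genes was -0.20 between lines in controls and -0.23 with FFAs, and it was within 0.05 of 0 under either scaling. The calls in controls split into 3857 higher and 6429 lower in HepG2 cells, and into 5002 and 5185 after quantile normalization. The ACSM3 call held under both.

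ACSM1 stayed low throughout. It ranged from 0.13 to 1.33 TPM over the 12 HepG2 libraries, with 8 of them under 1 TPM, and from 0 to 0.62 TPM over the 11 Caco-2 libraries, and no group reached a mean of 1 TPM, the limit for entering a test. ACSM2A, ACSM2B and ACSM5 passed that limit in HepG2 cells only, which leaves 5 members tested in HepG2 cells and 2, ACSM3 and PAQR8, in Caco-2 cells. Over the 11 Caco-2 libraries, ACSM5 was listed at 0 TPM in 7 and ACSM2A in 6, and ACSM2B ranged from 0.09 to 1.14 TPM. ACSM4 was listed at 0 TPM in every library, and ACSM6 in every library but 1 of the co-cultured Caco-2 controls, at 0.06 TPM. ACSM3 thus made up most of the family: of the summed TPM of the 5 ACSM genes, its median share was 79.9% in mono-cultured HepG2 cells, 70.0% in co-cultured HepG2 cells, 96.1% in mono-cultured Caco-2 cells and 90.7% in co-cultured Caco-2 cells.

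ACSM3 was lower in all co-cultured than in all mono-cultured HepG2 libraries, and its log2 difference was the largest of the 4 ACSM genes compared, in controls and with FFAs. Without FFAs it had 179, 172 and 133 TPM in mono-culture and 71.7, 62.3 and 51.2 TPM in co-culture (61.8 ± 10.3, SD, n = 3). With FFAs it had 171, 168 and 189 TPM in mono-culture (176 ± 11.5, SD, n = 3) and 72.5, 59.5 and 107 TPM in co-culture (79.8 ± 24.7, SD, n = 3). All 6 co-cultured libraries were below all 6 mono-cultured ones, and co-cultured FFAs-treated replicate 3 was the nearest to them. On the log2(TPM + 1) scale, the difference, co-culture minus mono-culture, was -1.37 in controls and -1.17 with FFAs, that is 0.386 and 0.443 times the mono-cultured level. Without the 4 libraries numbered 3 it was -1.38 and -1.35. Averaged over both treatments it was -1.27, the 14th lowest of 14255 genes. These contrasts chose the gene, so nothing is read from that place or from the lack of overlap, which 7.6% of all genes showed in this direction in controls, 5.44% with FFAs and 0.758% over both treatments. In such bulk samples, fewer cells of a type and less RNA per cell cannot be told apart.

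**Figure D1:**
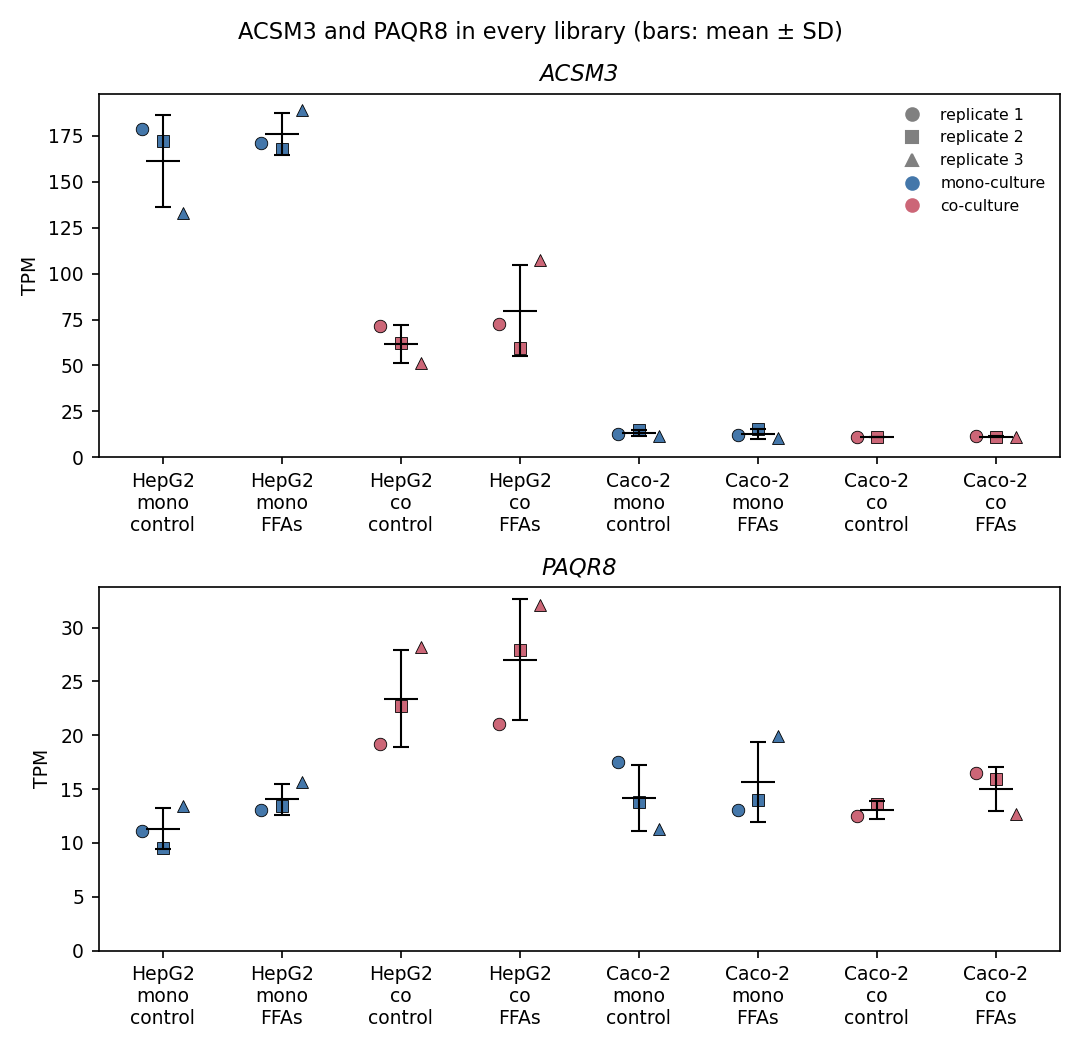
TPM of ACSM3 (top) and PAQR8 (bottom) in each of the 23 libraries, by cell line, culture and treatment; points are libraries (shape: replicate number), and lines with whiskers are the mean ± SD of 3 libraries, or 2 for co-cultured Caco-2 controls. Co-cultured HepG2 libraries lie between 51.2 and 107 TPM for ACSM3, below the mono-cultured ones at 133 to 189, and between 19.2 and 32.1 TPM for PAQR8, above the mono-cultured ones at 9.53 to 15.7.

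The other ACSM genes of HepG2 cells had lower means in co-culture with groups that mostly overlapped. ACSM5 had 15.96, 22.5 and 7.48 TPM in mono-cultured and 12.8, 12.4 and 3.42 TPM in co-cultured controls, and 18.3, 20.2 and 11.3 TPM in mono-culture and 10.3, 7.39 and 6.94 TPM in co-culture with FFAs. Its groups overlapped in controls and not with FFAs, at log2 differences of -0.68 and -0.91. With FFAs, 5.44% of all genes separated downwards. ACSM2B had 16.7, 22.96 and 9.44 TPM against 16.98, 19.6 and 4.82 TPM in controls, and 23.9, 20.4 and 19.8 TPM against 17.8, 9.48 and 11.7 TPM with FFAs. It showed the same pattern as ACSM5, overlap in controls and none with FFAs, at -0.35 and -0.72. ACSM2A had 6.16, 6.42 and 4.65 TPM against 5.90, 6.49 and 1.64 TPM in controls, and 8.84, 5.63 and 6.75 TPM against 8.36, 3.88 and 3.99 TPM with FFAs. Its groups overlapped under both treatments, at log2 differences of -0.38 in each. ACSM1 showed no such shift, with means of 0.758 ± 0.373 TPM in mono-culture and 0.705 ± 0.501 TPM in co-culture (SD, n = 6 each). As a sum, the 5 ACSM genes had 211 ± 27.8 TPM in mono-cultured and 98.8 ± 24.2 TPM in co-cultured HepG2 cells (SD, n = 6 each).

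Replicate 3 weighed on these smaller differences. It was the lowest library of its HepG2 group in 4 of 4 groups for ACSM5 and for ACSM1, in 3 of 4 for ACSM2B and in 2 of 4 for ACSM2A and ACSM3. Without the 4 libraries numbered 3, the control difference between co-culture and mono-culture was -0.55 for ACSM5, -0.10 for ACSM2B and -0.02 for ACSM2A. With FFAs it was then -1.06 for ACSM5, -0.72 for ACSM2B and -0.26 for ACSM2A. Leaving out only co-cultured control replicate 3 gave -0.14 for ACSM5, 0.23 for ACSM2B and 0.10 for ACSM2A in controls, so the sign for the ACSM2 genes rested on that library. Over the 12 HepG2 libraries, the deviations of ACSM2B from its group means went with those of ACSM5 (Pearson r = 0.93) and of ACSM2A (r = 0.92), and those of ACSM3 less closely with ACSM2B (r = 0.51), ACSM5 (r = 0.40) and ACSM2A (r = 0.33). These are descriptions over libraries that share replicate numbers, and ACSM2A and ACSM2B share sequence.

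**Figure D2:**
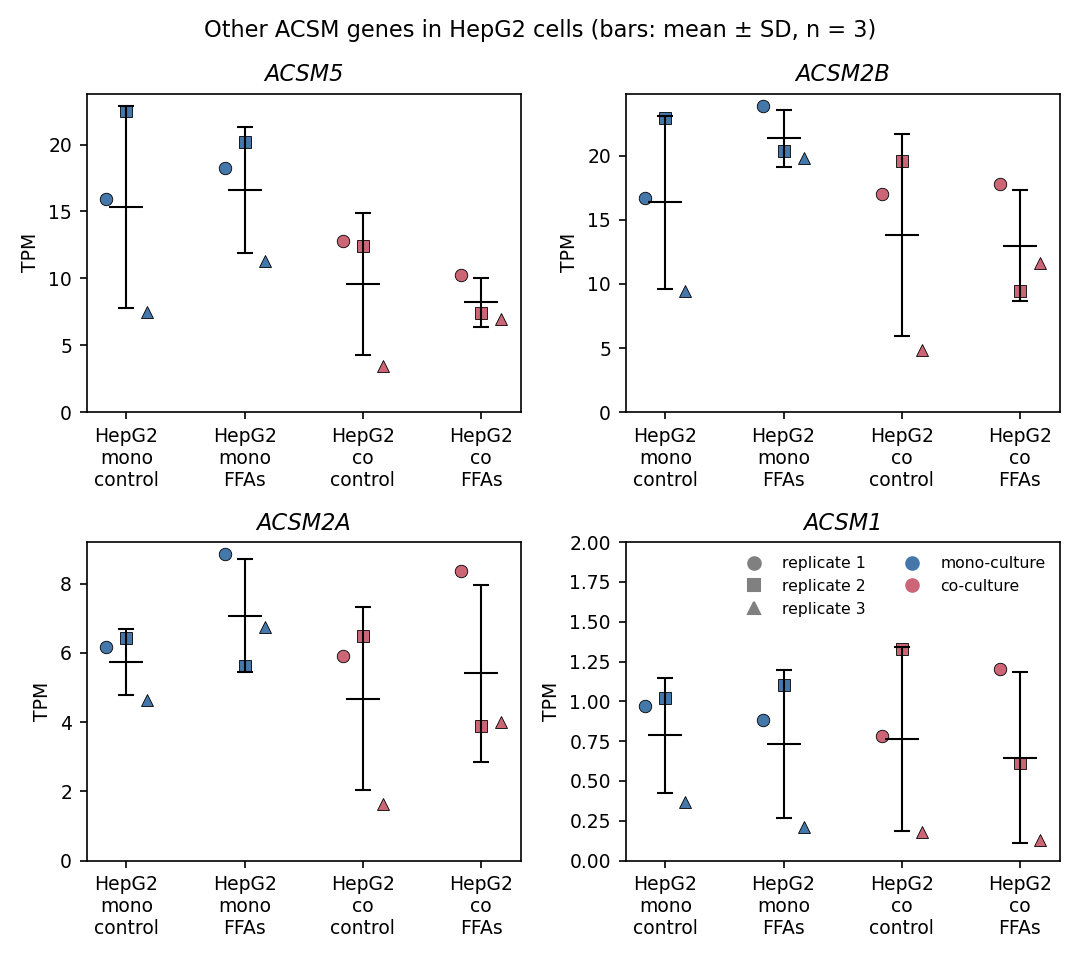
TPM of ACSM5, ACSM2B, ACSM2A and ACSM1 in the 12 HepG2 libraries, with 1 point for each library (shape: replicate number) and lines with whiskers for the mean ± SD of 3 libraries; each panel has its own axis from 0. Replicate 3 is the lowest point of all 4 groups for ACSM5 and ACSM1, and the mean of co-cultured FFAs-treated cells is below that of mono-cultured FFAs-treated cells in each panel.

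PAQR8 went the other way. It had 11.1, 9.53 and 13.4 TPM in mono-cultured HepG2 controls (11.3 ± 1.94, SD, n = 3) and 19.2, 22.7 and 28.2 TPM in co-cultured controls (23.4 ± 4.52, SD, n = 3). With FFAs it had 13.0, 13.4 and 15.7 TPM in mono-culture (14.0 ± 1.41, SD, n = 3) and 21.0, 27.9 and 32.1 TPM in co-culture (27.0 ± 5.59, SD, n = 3). All 6 co-cultured libraries were above all 6 mono-cultured ones. The log2 difference was 0.98 in controls and 0.88 with FFAs, that is 1.97 and 1.84 times the mono-cultured level, and 0.96 and 0.83 without the 4 libraries numbered 3. Replicate 3 was the highest library for PAQR8 in 4 of 4 HepG2 groups. Averaged over both treatments, the PAQR8 difference was 0.93, the 24th highest of 14255 genes. As for ACSM3, the contrast chose the gene, and groups without overlap in this direction were found for 7.25% of all genes in controls, 4.17% with FFAs and 0.589% over both treatments.

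**Figure D3:**
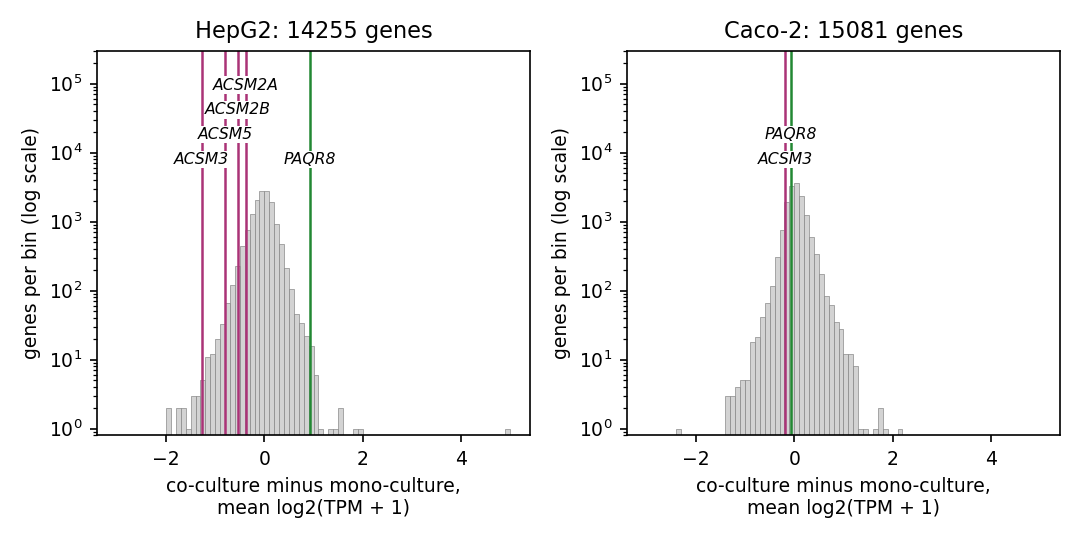
Number of genes (log axis) by the difference in mean log2(TPM + 1), co-culture minus mono-culture averaged over both treatments, in bins of 0.1, for 14255 genes in HepG2 cells (left) and 15081 in Caco-2 cells (right); vertical lines mark the members whose mean reached 1 TPM in a group of that line. In HepG2 cells ACSM3 lies at -1.27 and PAQR8 at 0.93, away from the centre of the distribution, while in Caco-2 cells both lie near the centre, at -0.18 and -0.07.

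Markers of the other line and of hepatic identity were read beside these values. CDX2, CDH17 and CEACAM5, the 3 of 12 intestinal markers that were over 10 TPM in Caco-2 and under 1 TPM in HepG2 controls, summed to 0.0319% to 0.271% of their Caco-2 level in mono-cultured HepG2 libraries and to 0.0657% to 0.693% in co-cultured ones. Among the co-cultured ones the shares were 0.0657% to 0.14% in controls and 0.157% to 0.693% with FFAs. CDH17 had a log2 difference of 0.97 with FFAs, the highest of the 4 intestinal markers compared. Of HepG2 groups, CDH17 reached a mean of 1 TPM only in co-cultured FFAs-treated cells. That limit therefore set its direction and any separation upwards, and its values are a description. Of the 4 markers compared, 1 separated upwards and 2 downwards with FFAs, where 4.17% and 5.44% of all genes did. At those shares, Caco-2 RNA would carry at most 0.0899 TPM of ACSM3 and 0.0983 TPM of PAQR8 into a co-cultured HepG2 library. The part of such RNA in the HepG2 values was not tested. All 12 intestinal markers, of which 4 had a group mean of 1 TPM or more in HepG2 cells, summed to 207 to 255 TPM in mono-cultured and 159 to 214 TPM in co-cultured HepG2 libraries, and 2 were at 0 TPM in every co-cultured one. The 15 hepatic markers summed to 53590 to 65020 TPM in mono-cultured and 43430 to 57710 TPM in co-cultured HepG2 libraries. Their median log2 difference averaged over both treatments was -0.18, that of all genes was -0.02, and for 0 of the 15 did all 6 co-cultured libraries lie on the same side of all 6 mono-cultured ones. Within a treatment, 5 of the 15 separated downwards in controls, at a median of -0.22, where 7.6% of all genes did, and 3 of the 15 with FFAs, at a median of -0.11, where 5.44% did. The part of the hepatic markers' change in the ACSM values was not tested.

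In Caco-2 cells, where the members were not chosen, co-culture was tested for ACSM3 and PAQR8, and 0 of 2 passed in any comparison. ACSM3 had 12.6, 14.8 and 11.5 TPM in mono-cultured and 10.9 and 10.9 TPM in co-cultured controls (10.87 and 10.95 before rounding), and 12.3, 15.4 and 10.2 TPM in mono-culture and 11.6, 10.8 and 11.3 TPM in co-culture with FFAs. In controls both co-cultured libraries were below all 3 mono-cultured ones, as for 7.99% of all genes, and with FFAs, where 4.69% of genes separated upwards and 4.63% downwards, the groups overlapped. The log2 difference was -0.22 in controls (SE 0.17, limma adjusted p = 0.87), where 0.0199% of genes passed and 5.43% had an unadjusted p under 0.05, and -0.14 with FFAs (SE 0.15, limma adjusted p = 0.95), where 0% passed and 919 genes, or 6.09%, had an unadjusted p under 0.05. Averaged over both treatments, the ACSM3 difference was -0.18 (95% interval -0.43 to 0.07, limma adjusted p = 0.60), with 0% of genes passing and 1578, or 10.5%, at an unadjusted p under 0.05. Its 5 co-cultured and 6 mono-cultured libraries overlapped, while 0.749% of genes separated upwards and 0.63% downwards. PAQR8 had 17.5, 13.8 and 11.3 TPM in mono-cultured and 12.5 and 13.6 TPM in co-cultured Caco-2 controls, and 13.1, 14.0 and 19.9 TPM in mono-culture and 16.4, 15.9 and 12.7 TPM in co-culture with FFAs. Its groups overlapped in both comparisons, and the averaged log2 difference was -0.07 (95% interval -0.38 to 0.24, limma adjusted p = 0.90), with a sign that changed when single libraries were left out. SPP1, a HepG2 marker under 1 TPM in mono-cultured Caco-2 cells, was at 0.21 to 39.6 TPM in co-cultured Caco-2 libraries. That was 0.029% to 5.45% of its level in HepG2 controls, against 0.023% to 0.13% in mono-cultured Caco-2 libraries. The median over the co-cultured Caco-2 libraries was 1.04 TPM, or 0.143%, far below the highest. The 15 hepatic markers had a median log2 difference of 0.11 in controls and 0.49 with FFAs, against 0.04 and 0.01 for all genes. In each treatment 2 of the 15 separated upwards, where 15.1% of all genes did in controls and 4.69% with FFAs. Over both treatments 2 of the 15 separated upwards as well, where 0.749% of all genes did. Their median averaged over both treatments was 0.19, against 0.03 for all genes. The part of HepG2 RNA in the Caco-2 values was not tested.

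The levels of the 8 groups can be put in order. For ACSM3 the order was mono-cultured HepG2 cells with FFAs and then without, co-cultured HepG2 cells with FFAs and then without, and the 4 Caco-2 groups from 13.0 down to 10.9 TPM. Ranges of neighbouring groups separated only between mono-cultured and co-cultured HepG2 cells and between co-cultured HepG2 controls and Caco-2 cells, and ranges of neighbours among the Caco-2 groups overlapped. For PAQR8 the co-cultured HepG2 groups led at 27.0 and 23.4 TPM, the 4 Caco-2 groups and mono-cultured FFAs-treated HepG2 cells lay between 15.7 and 13.1 TPM, and mono-cultured HepG2 controls came last at 11.3 TPM. No neighbouring groups of PAQR8 had separate ranges.

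**Figure D4:**
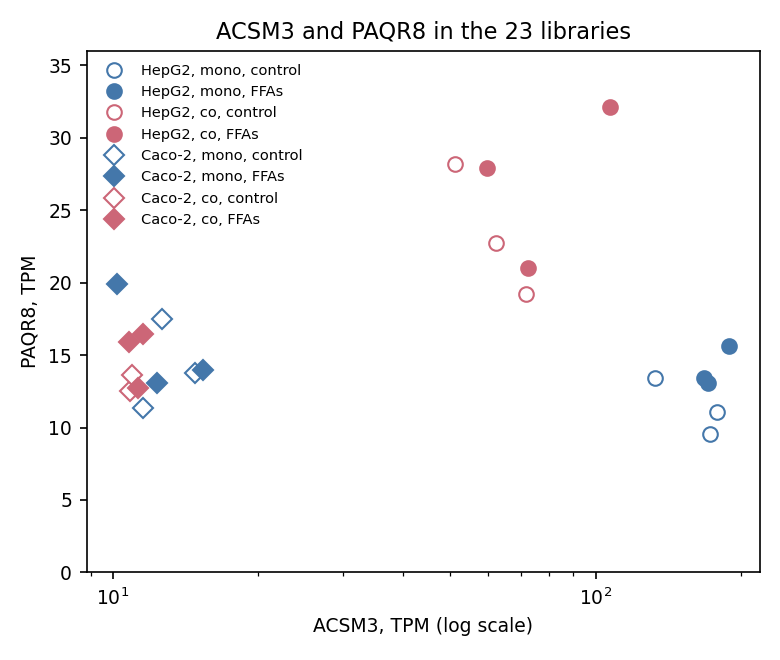
PAQR8 against ACSM3 in the 23 libraries, both in TPM, with a log axis for ACSM3; circles are HepG2 and diamonds Caco-2, blue is mono-culture and red co-culture, filled is FFAs and open is control. Mono-cultured HepG2, co-cultured HepG2 and Caco-2 libraries form 3 clouds, and within the HepG2 clouds the libraries do not line up along a falling line.

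Since the libraries fell into such clouds, no correlation over all of them is given for the pair. Within groups, the deviations of ACSM3 and PAQR8 from their group means had r = -0.12 over 12 HepG2 libraries. Co-cultured FFAs-treated replicate 3 had the highest ACSM3 and the highest PAQR8 of the co-cultured libraries, at 107 and 32.1 TPM.

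Palmitic and oleic acid are long-chain acids, which long-chain acyl-CoA synthetases activate, and the effect of FFAs on the ACSM genes was compared within each culture. In mono-cultured HepG2 cells, 0 of 5 members passed, as did 0% of all genes (0 of 14255 by limma), with 319 genes, or 2.24%, at an unadjusted p under 0.05. The log2 difference, FFAs minus control, was 0.14 for ACSM3 (95% interval -0.30 to 0.57), 0.44 for ACSM2B (-0.51 to 1.39), 0.25 for ACSM2A (-0.58 to 1.08), 0.19 for ACSM5 (-0.80 to 1.18) and 0.29 for PAQR8 (-0.12 to 0.71), each with a limma adjusted p of 1. All 5 pairs of groups overlapped, while 3.1% of all genes separated upwards and 3.37% downwards. Without the libraries numbered 3 the differences were -0.05 for ACSM3, 0.17 for ACSM2B, 0.15 for ACSM2A, 0.02 for ACSM5 and 0.34 for PAQR8. In co-cultured HepG2 cells, where no test is given, the differences were 0.33 for ACSM3, 0.07 for ACSM2B, 0.25 for ACSM2A, -0.04 for ACSM5 and 0.20 for PAQR8, again with overlap in all 5, where 3.02% of all genes separated upwards and 2.4% downwards. The ACSM3 value rested on FFAs-treated replicate 3 at 107 TPM, and was 0.10 without it. Without the libraries numbered 3, the differences in co-culture were -0.02 for ACSM3, -0.45 for ACSM2B, -0.09 for ACSM2A, -0.48 for ACSM5 and 0.20 for PAQR8. Leaving out only co-cultured control replicate 3 gave -0.50 for ACSM2B, -0.24 for ACSM2A and -0.58 for ACSM5, so the signs of the ACSM2 genes and the size of ACSM5 rested on that library. In Caco-2 cells, 0 of 2 members passed with FFAs in mono-culture, where 0% of genes passed and 393, or 2.61%, had an unadjusted p under 0.05. In co-culture 0 of 2 passed as well, where 0.0199% of genes did and 427, or 2.83%, had an unadjusted p under 0.05. The log2 differences were -0.05 in mono-culture and 0.04 in co-culture for ACSM3, and 0.13 and 0.18 for PAQR8, with adjusted p = 1 in limma for all 4 and overlap in all 4. Groups separated upwards for 5.08% and downwards for 2.05% of genes in mono-culture, and for 8.27% and 8.91% in co-culture. The difference of the FFAs effect between cultures in Caco-2 cells was 0.08 for ACSM3 (95% interval -0.42 to 0.58) and 0.05 for PAQR8 (95% interval -0.57 to 0.67), each with a limma adjusted p of 1.00, where 0% of genes passed and 292, or 1.94%, had an unadjusted p under 0.05. These intervals leave room for a difference of up to 0.58 for ACSM3 and 0.67 for PAQR8 on the log2 scale.

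ACSM3 overlaps another expressed gene, which matters because the library method does not keep the strand. ERI2, which encodes an exonuclease, is read from the opposite strand and covers 837 of the 2533 exon bases of the main ACSM3 transcript, or 33.0%: 225 coding bases and 612 bases of untranslated region. ERI2 was itself between 23.2 and 58.9 TPM in HepG2 libraries, with a mean below that of ACSM3 in all 4 groups. In Caco-2 cells ERI2 had group means of 30.0 to 33.7 TPM, above those of ACSM3 at 10.9 to 13.0 TPM, and how many ACSM3 reads there came from ERI2 was not tested. In HepG2 cells, the ERI2 log2 difference, co-culture minus mono-culture, was 0.23 in controls and -0.14 with FFAs, with overlap in both. THUMPD1 codes for an RNA-binding protein and lies within ACSM3 on the opposite strand, with 0 shared exon bases. Its co-cultured HepG2 controls were above the mono-cultured ones without overlap, at 0.30, as for 7.25% of all genes. With FFAs its groups overlapped, at 0.14. A long noncoding RNA on the opposite strand (ENSG00000262995) covers 325 of the 2796 exon bases of ACSM5. On chromosomes 16 and 6, 13 neighbours of the members could be compared in HepG2 cells. In controls 2 of the 13 separated upwards, THUMPD1 among them, and 1 downwards, where 7.25% and 7.6% of all genes did. With FFAs 0 separated, where 4.17% and 5.44% did. For 0 of the 13 did all 6 co-cultured libraries lie on the same side of all 6 mono-cultured ones. Over both treatments, 0.589% of all genes separated so upwards and 0.758% downwards. The neighbours' median difference averaged over both treatments was -0.04, against -0.02 for all genes. The range ran from -0.62 for GSTA2 to 0.42 for MCM3, both near PAQR8 on chromosome 6.

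**Figure D5:**
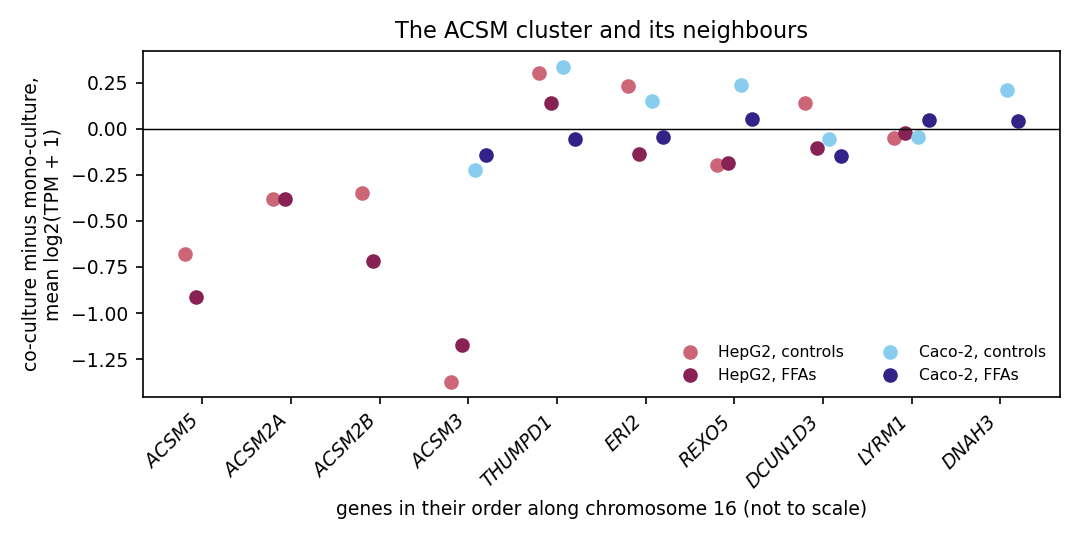
Difference in mean log2(TPM + 1), co-culture minus mono-culture, for genes of the ACSM cluster and its neighbours in their order along chromosome 16 (not to scale), with 1 point for each line and treatment; genes or lines under 1 TPM in every group have no point. In HepG2 cells the points of ACSM5, ACSM2A, ACSM2B and ACSM3 lie between -0.35 and -1.37, and those of the neighbours from THUMPD1 to LYRM1 lie between -0.20 and 0.30. GP2 and TMEM159, neighbours outside the stretch drawn, were at 0.60 and -0.38 in HepG2 controls and at -0.24 and -0.38 with FFAs. Of HepG2 groups, GP2 reached a mean of 1 TPM only in co-cultured controls, at 3.38, 0.89 and 0.14 TPM. Its direction in controls was thus set by that limit.

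Related genes were followed as 3 lists. Of 20 other acyl-CoA synthetases, 18 could be compared in HepG2 cells. In co-culture averaged over both treatments, where 0.589% of all genes separated upwards and 0.758% downwards, 0 of the 18 separated from mono-culture, their median log2 difference was -0.14 and their range ran from -0.45 for ACSS1 to 0.25 for ACSL3, the long-chain synthetase with the highest level. Of 15 genes of glycine conjugation and medium-chain acid oxidation, 11 could be compared, 0 separated, and the median was -0.19, from -0.42 for ACADS, the short-chain acyl-CoA dehydrogenase, to 0.14 for the carnitine transporter SLC22A5. Of 13 genes of the PAQR family and of progesterone membrane receptors, 11 could be compared, 0 separated, and the median was -0.02, from -0.20 for PAQR6 to 0.17 for MMD. Within a treatment, 2 of the 18 synthetases and 2 of the 11 glycine and oxidation genes separated downwards in controls, and as many with FFAs, where 7.6% and 5.44% of all genes did, while 0 genes of the PAQR list separated. The medians of the synthetases were -0.17 and -0.11, and those of the glycine and oxidation genes -0.23 and -0.20. With FFAs in mono-cultured HepG2 cells, 0 of the 18, 0 of the 11 and 0 of the 11 passed. In every Caco-2 comparison, 0 of 15 synthetases, 0 of 12 glycine and oxidation genes and 0 of 10 PAQR and progesterone receptor genes passed.

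Between lines, the lists held calls in both directions. In mono-cultured controls, 9 of 18 other synthetases passed as higher and 5 as lower in HepG2 cells, where 23.4% and 39% of all genes did, with a median log2 difference of 0.60 against -0.20 for all genes. ACSS3, a propionate-activating synthetase, had a log2 difference of 6.19, ACSL4, a long-chain synthetase, one of 2.52, and SLC27A3 was lower at -2.41. Of 12 glycine and oxidation genes, 4 were higher, among them ETFB at 1.24 and ACADSB at 1.47, and 6 lower, among them ECHS1 at -1.39 and GLYATL1, a glycine acyltransferase relative, at -2.76. Of 11 genes of the PAQR list, 5 were higher, led by PAQR9 at 5.87, and 2 lower, PAQR5 at -2.41 and PGRMC1 at -0.69. Of 14 neighbours, 3 were higher and 4 lower, near or under the shares of 23.4% and 39% of all genes. A gene could enter these counts through a single line, and those near 0 in the other had to differ. The limit of 1 TPM was reached by 18 synthetases in HepG2 cells and 15 in Caco-2 cells. These numbers were 11 and 12 for glycine and oxidation genes, 11 and 10 for the PAQR list, and 13 and 13 for neighbours. The largest differences are therefore given as a description. Next to the ACSM cluster, LYRM1 was higher at 0.92. DNAH3 was under 1 TPM in every HepG2 library and entered through Caco-2 cells only. Its direction was thus set by the limit, and its difference of -1.71 is a description.

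Genes with a pattern like ACSM3 or PAQR8 were found by Pearson's r of log2(TPM + 1), as a description over libraries that share groups and replicate numbers. Over the 12 HepG2 libraries, the 5 most like ACSM3 were MAOA (r = 0.95), CIDEB (0.94), TMPRSS2 (0.94), CRYL1 (0.93) and AFMID (0.93). MAOA, which encodes a monoamine oxidase, had mean levels of 26.0 TPM in mono-culture and 18.7 TPM in co-culture, CIDEB, a lipid droplet protein, 105 and 61.9 TPM, and TMPRSS2, a membrane serine protease, 4.20 and 1.94 TPM. The 5 most like PAQR8 were ID2 (r = 0.92), UBE2M (0.91), WDR45B (0.91), FAM210A (0.89) and HAMP (0.89). ID2, an inhibitor of basic helix-loop-helix factors, had 72.9 TPM in mono-culture and 139 TPM in co-culture, and HAMP, the iron hormone hepcidin, 1.54 and 83.2 TPM. Once group means were removed, 0 of these 5 stayed among the 5 most alike for either gene. Over the 11 Caco-2 libraries, other genes came first: ALAS1 (r = 0.95), ZFP91, HSD11B2, LINC02672 and RHBDF2 for ACSM3, and PDE9A (r = 0.93), ZNF627, ZKSCAN1, FYCO1 and ZNF250 for PAQR8.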

How the data were processed

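mRNA was measured in 23 libraries by SMART-Seq v4 and Illumina sequencing. The authors deposited 1 table of TPM per library. According to the methods and the submitters' processing notes, reads of rRNA, tRNA and the mitochondrial genome were removed with Bowtie2 2.1.0, and the rest were mapped to GRCh38 (Ensembl annotation) with STAR 2.7.1a and quantified with RSEM 1.3.0. The labels give 0.5% FBS during treatment, and the methods serum-free medium. RSEM divides reads that fit several genes, so ACSM2A and ACSM2B may exchange reads.

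Groups and replicate numbers came from the labels. Values were analysed as log2(TPM + 1) with limma 3.58.1 (eBayes with trend, R 4.3.3), the 4 groups of a line in a single fit, or all 8 groups for differences between lines. A gene was tested if any group's mean reached 1 TPM, with Benjamini-Hochberg adjustment at 0.05 over all of them. Contrasts with co-cultured HepG2 libraries were not tested. The members and lists were chosen with earlier results of these data known. Genes are named as members, as relatives or overlapping genes, or by the smallest p or highest TPM of each list and the 5 highest r. THUMPD1, the list extremes, the genes picked from the likeness lists for their levels, GC, FABP2 and SPP1 were named after their values were seen. Gene positions and sequences come from GENCODE release 44 on GRCh38, a later annotation than the authors', and coding sequences were aligned with Biopython 1.88. Tables were read with pandas 2.3.3 and numpy 2.4.6, correlations came from scipy 1.17.1 and figures from matplotlib 3.10.9, all under Python 3.11.15. The fit was tested on simulated data. Alternatives were other pseudocounts, scalings and filters, limma without the trend, only the groups compared, the replicate block, and leaving out each library. Mono-cultured HepG2 controls and FFAs-treated libraries of the same number deviated together (r = 0.17, 0.31 and 0.50), a pairing hinted at by the data and not given by the labels, and the replicate block changed no call there. TPM hold no counts, so depth and its precision are unknown.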

Additional observations from a re-analysis of the deposited data

Results flagged for a closer look

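PAQR8 was flagged for a difference between the lines in the effect of co-culture. Without FFAs, all 3 co-cultured HepG2 libraries were above all 3 mono-cultured ones, at a log2 difference of 0.98, while the Caco-2 difference was -0.09 with overlapping groups. The effects differ by 1.07 on the log2(TPM + 1) scale, HepG2 minus Caco-2. PAQR8 was chosen on the HepG2 libraries, so this difference was not tested.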

How the results depend on the processing

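The 0 calls among members in each Caco-2 comparison and in mono-cultured HepG2 cells with FFAs, and the ACSM3 calls between lines, held under every alternative run. The counts of all genes called moved, from 0, 3, 3, 0, 0 and 0 in Caco-2 cells (FFAs in mono-culture, FFAs in co-culture, co-culture of controls, co-culture with FFAs, co-culture averaged, interaction) and 0 in HepG2 cells (FFAs in mono-culture), as follows in the same order. Without a filter on TPM they were 2, 11, 11, 2, 7, 10 and 1, and with limma without the trend 2, 5, 5, 2, 8 and 7 in Caco-2 cells. Fitting only the groups compared gave 1, 1 and 0 for the first 3, and a pseudocount of 0.1 or a filter at 5 TPM gave 0 for FFAs in co-culture and 0 for co-culture of controls. Leaving out single libraries gave 0 to 1, 2 to 24, 2 to 24, 0 to 2, 0 to 13, 0 to 12 and 0 to 1, with 24, 13 and 12 all coming without replicate 2 of the co-cultured Caco-2 controls, which leaves 1 library there, assumed to vary like the other groups. Without the 4 HepG2 libraries numbered 3, an alternative chosen after seeing the data, FFAs in mono-cultured HepG2 cells called 3 genes.

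Of the signs that reversed, PAQR8 between lines with FFAs was 0.081 under median-of-ratios scaling, 0.16 under quantile normalization and from -0.24 to 0.045 with single libraries left out, and ACSM3 with FFAs in mono-cultured HepG2 cells was -0.050 without the libraries numbered 3. With single libraries left out, ACSM5 with FFAs in mono-cultured HepG2 cells ran from -0.22 to 0.52. In Caco-2 cells, ACSM3 ran from -0.19 to 0.087 with FFAs in mono-culture and from -0.052 to 0.22 for the interaction, and PAQR8 from -0.043 to 0.28 with FFAs in mono-culture, from -0.23 to 0.059 and from -0.15 to 0.13 for co-culture without and with FFAs, from -0.14 to 0.020 averaged and from -0.10 to 0.22 for the interaction. The ACSM3 difference between cultures in HepG2 cells stayed between -1.51 and -0.99, and that of PAQR8 between 0.75 and 1.11, with single libraries left out. Intestinal markers, summed in HepG2 libraries and set against Caco-2 controls, differed between cultures by -4.27 percentage points with all 12 and by 0.13 with the 3 strict ones. The cause of these changes was not tested.

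Under a replicate block, co-culture of Caco-2 controls called 5 genes and co-culture averaged 60, and no call of a member changed. Same-numbered libraries deviated together at r from 0.03 to 0.60 in HepG2 cells, over 0.1 in 15 of 18 pairs, and from -0.09 to 0.31 in Caco-2 cells, over 0.1 in 7 of 15. A library correlated best with its own number in 25 of 36 comparisons with another HepG2 group and in 14 of 30 in Caco-2 cells. In the main fits the numbers were not taken as pairs in either line, so their intervals and p-values leave such pairing out. Unknown depth leaves levels near 0 TPM, as of ACSM1, without a stated precision.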
